A study of Homo sapiens with 24 samples.

Results

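The replication-dependent histone genes were represented by 57 of the 19460 probe sets that carried exactly 1 gene symbol. Members were chosen by name alone, as every such probe set whose symbol was H1-1 to H1-6 or a numbered H2AC, H2BC, H3C or H4C gene. They comprised 6 linker histone H1 genes, 14 H2A genes, 16 H2B genes, 8 H3 genes and 13 H4 genes, of which 49 lay on chromosome 6, 7 on chromosome 1 and 1, H4C16, on chromosome 12 (GRCh38.p14 annotation). The probe sets of H4C14 and H4C15 held identical values in every array, so the 57 members gave 56 distinct measurements. Both are included in all counts of members. A further 20 probe sets carried a matching symbol together with other symbols and were not members, and 12 histone symbols, H2AC18 and H3C15 among them, were reached only through these. Many core histone genes of a class are near-copies of each other, so a probe set may also have read its paralogs. Sequence identity between members was not computed here, and values of single members are uncertain to that extent.

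Replication-dependent histone genes supply the core histones H2A, H2B, H3 and H4, which wrap DNA into nucleosomes, and the linker histone H1, which binds where DNA enters and leaves them. They are transcribed in clusters at the histone locus body under the coactivator NPAT, a substrate of cyclin E with CDK2, and their mRNAs end in a stem-loop bound by SLBP instead of a poly(A) tail. Their mRNA accumulates in S phase and is degraded when DNA synthesis stops. Epidermal growth factor (EGF) acts through its receptor tyrosine kinase and induces immediate early genes and, later, entry into the cell cycle.

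The promoters of 5 members are shown, each from a different histone class. Each shown member had the smallest p over the 12 groups among the members of its class with a listed promoter. They are from RefSeq (GRCh38.p14), run 5′ to 3′ on the strand of the gene, and cover 250 bases before to 50 bases after the first listed start. Their positions are chr6:27867539-27867838 (minus strand) for H1-5, chr6:26216671-26216970 (plus strand) for H2AC8, chr6:27814772-27815071 (plus strand) for H2BC14, chr6:26250586-26250885 (minus strand) for H3C7 and chr6:26204360-26204659 (plus strand) for H4C5. Capitals mark matches, on either strand, to the TATA box (TATAAA), the CCAAT box (CCAAT), the octamer bound by OCT1 (ATTTGCAT) and the core of the H4 element bound by HINFP (GGTCCG).
H1-5: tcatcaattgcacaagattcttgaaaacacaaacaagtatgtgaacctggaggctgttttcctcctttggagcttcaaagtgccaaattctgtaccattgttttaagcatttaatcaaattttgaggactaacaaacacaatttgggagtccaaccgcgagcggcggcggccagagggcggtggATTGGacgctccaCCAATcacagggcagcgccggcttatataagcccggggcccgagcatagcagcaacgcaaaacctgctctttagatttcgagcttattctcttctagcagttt
H2AC8: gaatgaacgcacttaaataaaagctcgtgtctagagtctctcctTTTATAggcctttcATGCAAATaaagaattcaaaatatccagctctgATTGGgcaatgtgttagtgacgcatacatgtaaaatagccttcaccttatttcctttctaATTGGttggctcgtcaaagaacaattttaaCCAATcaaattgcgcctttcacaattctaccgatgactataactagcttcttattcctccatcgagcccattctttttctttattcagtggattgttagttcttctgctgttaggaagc
H2BC14: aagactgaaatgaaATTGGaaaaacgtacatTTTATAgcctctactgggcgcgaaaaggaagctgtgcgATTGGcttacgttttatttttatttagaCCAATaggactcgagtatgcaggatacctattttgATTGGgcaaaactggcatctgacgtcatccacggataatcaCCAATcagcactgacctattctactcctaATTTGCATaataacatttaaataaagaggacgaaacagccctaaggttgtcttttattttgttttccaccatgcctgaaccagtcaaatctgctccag
H3C7: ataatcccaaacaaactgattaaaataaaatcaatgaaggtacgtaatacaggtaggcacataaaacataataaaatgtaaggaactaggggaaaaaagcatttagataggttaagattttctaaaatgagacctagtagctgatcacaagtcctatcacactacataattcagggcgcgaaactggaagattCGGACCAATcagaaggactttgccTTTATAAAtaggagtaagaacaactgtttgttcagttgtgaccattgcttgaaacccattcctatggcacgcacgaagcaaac
H4C5: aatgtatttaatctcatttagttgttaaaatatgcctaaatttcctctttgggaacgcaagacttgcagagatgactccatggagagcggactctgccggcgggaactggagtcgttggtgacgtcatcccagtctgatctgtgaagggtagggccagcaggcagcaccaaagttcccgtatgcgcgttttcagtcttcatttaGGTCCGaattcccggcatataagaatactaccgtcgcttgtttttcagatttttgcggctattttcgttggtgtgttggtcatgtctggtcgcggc

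Matches to the TATA box were found in 34 of 52 listed member promoters (65.4%), against 12% of all 27305 listed promoters of the same length, and matches to CCAAT in 44 of 52 (84.6%), against 35.7%. The octamer separated the classes: 10 of 13 H2A and 13 of 16 H2B promoters held it, no H1, H3 or H4 promoter did, and 1.80% of all promoters did. The HINFP core was found in 10 of 11 H4 promoters and in 3 of the 41 others, against 11.2% of all promoters. CCAAT was present in every listed H1, H2A, H2B and H3 promoter and in 3 of 11 H4 promoters. In H3C7 the CCAAT match overlaps a reverse-strand HINFP core, and its forward TATA box starts 31 bases before the gene start. In H2BC14 the octamer starts 48 bases before the start, and the reverse-strand TATA match lies 219 bases before it, towards the divergent neighbour H2AC14. The TATA match of H2AC8 is also on the reverse strand, 206 bases before the start, towards the divergent neighbour H2BC8. Windows of divergent neighbours overlap, so 1 match can be counted in both genes.

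The arrays measured MCF10A cells, an established non-tumorigenic line of human breast epithelium that requires EGF for growth. Cells were transfected, with Oligofectamine in every group, with oligonucleotides directed at the microRNA miR-20a (si-miR-20a), at miR-671-5p (si-miR-671) or with a non-targeting oligonucleotide (control), and RNA was taken 0, 30, 60 and 120 min after EGF. Each of the 12 combinations had 2 arrays, described as biological duplicates. Before stimulation all cells grew in medium with EGF, horse serum, insulin, hydrocortisone and cholera toxin, and whether EGF was withdrawn before the experiment is not given in the sources used here. No arrays at later times without added EGF were analysed, so time in culture and EGF cannot be told apart. The miR-20a and miR-671-5p levels were not analysed here. RNA came from whole cultures, in which fewer cells in S phase and less histone mRNA per cell cannot be told apart. The labelling step is described as following the manufacturer's manual, so how far it captured mRNAs without a poly(A) tail is not given.

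All 7 measured markers of basal breast epithelium lay above the lower quartile of probe set means, and the mean of this list was 11.1 to 11.3 (log2 level) in the 24 arrays, against 5.66 to 6.22 for the fibroblast list and 5.74 to 6.25 for the blood and endothelial list. The luminal breast list had a mean of 7.40 to 7.78. Of its genes, KRT18 (11.2) and KRT8 (10.8) stood as high as basal markers, and the others lay at 4.81 to 7.18. The quartile alone does not separate the lists: 6 of 7 luminal, 6 of 7 fibroblast and 4 of 6 blood and endothelial genes also reached it. Replicate arrays correlated at 0.973 to 0.992. The histone probe sets differed between replicate arrays as a block. In 11 of the 12 groups 40 to 52 members were higher in replicate 1 than in replicate 2, whereas in si-miR-671 cells at 120 min 10 were. The medians of this difference reached 0.38 in si-miR-20a cells at 120 min, while over all probe sets its median there was -0.04. The array of si-miR-20a at 120 min, replicate 2, stood lowest, with a median shift of -0.50 from each member's own mean over the 24 arrays and 49 of 57 members below that mean. What set these shifts was not tested.

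**Figure D1:**
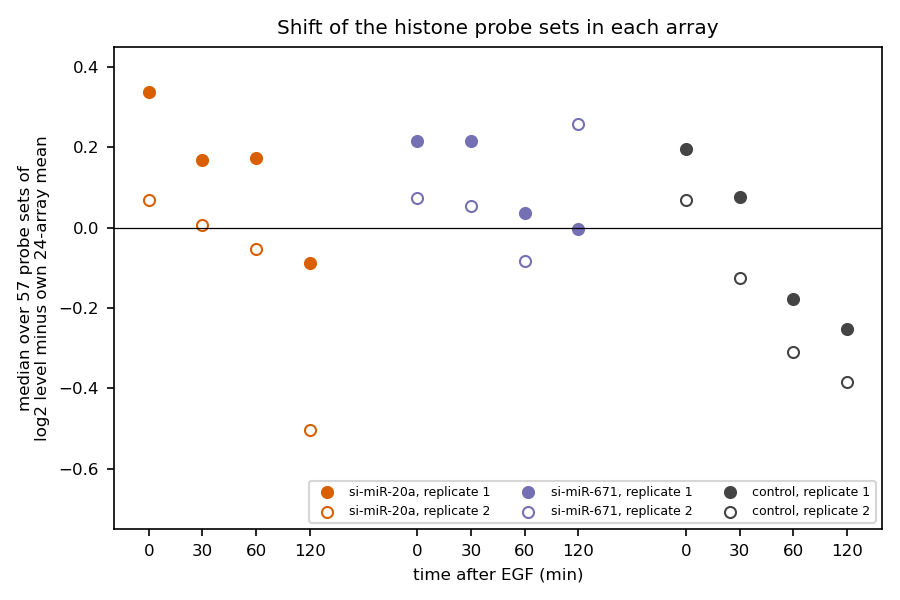
Median over the 57 histone probe sets of the log2 level minus each probe set's own mean over the 24 arrays, by transfection (colour), time after EGF in minutes (x axis) and replicate (filled, replicate 1; open, replicate 2). The control arrays at 60 and 120 min lie between -0.18 and -0.38, the lowest array is si-miR-20a at 120 min, replicate 2 (-0.50), and the si-miR-671 arrays at 120 min lie at 0.00 and 0.26.

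Members differed in how closely their replicates repeated. The pooled SD between replicates ranged from 0.06 for H4C5 to 0.70 for H4C1, with a median of 0.21 log2 units. The span between a member's lowest and highest array was 0.58 for H4C5 and 3.39 for H2BC1, a histone made mainly in testis, whose mean of 4.03 lay, like that of H4C7 at 4.92, below the lower quartile of all probe sets (4.96). By limma's moderated F test over the 12 groups, 24 of 57 members (42.1%) differed somewhere at an adjusted p under 0.05, against 19.1% of all probe sets. The testis-associated members H1-6, H2AC1 and H2BC1 were not among them.

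**Figure D2:**
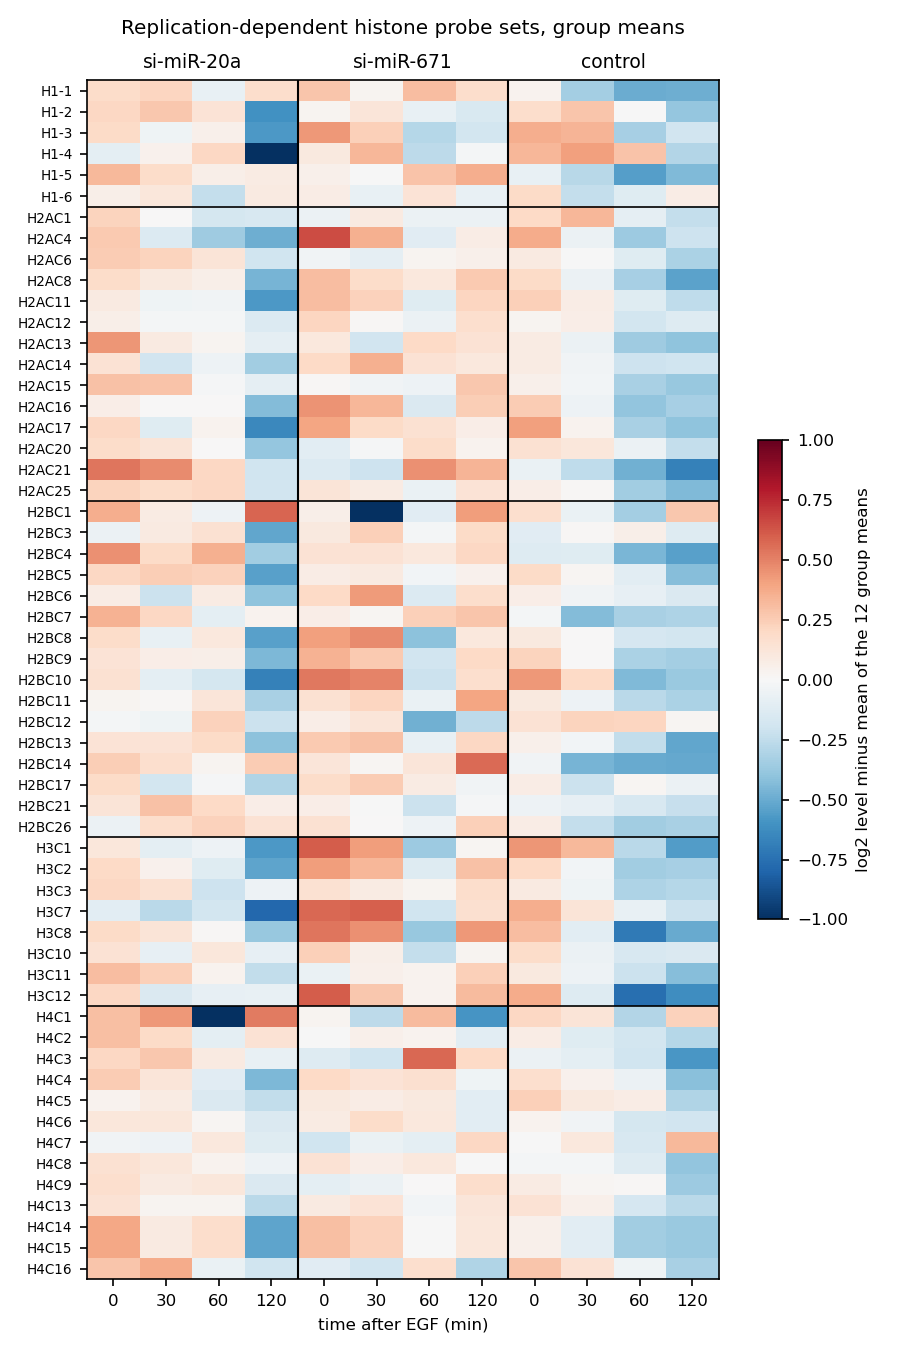
Group means of the 57 histone probe sets (rows, by class H1, H2A, H2B, H3 and H4 from top to bottom) in si-miR-20a, si-miR-671 and control cells at 0, 30, 60 and 120 min after EGF (columns), as log2 level minus the mean of the 12 group means. Colours are limited to -1 and 1; most members are below their mean in control cells at 60 and 120 min and in si-miR-20a cells at 120 min.

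Many histone transcripts fell after EGF. Averaged over the 3 transfections, 24 of 57 members were lower at 120 min than at 0 min and none was higher, by limma's moderated test with Benjamini-Hochberg adjustment over all 19460 probe sets (adjusted p under 0.05). Of all probe sets, 6.27% were called lower and 7.13% higher. Members of every class were among them: 8 of 13 H4, 7 of 14 H2A, 3 of 6 H1, 3 of 8 H3 and 3 of 16 H2B members. The 8 H4 members include both H4C14 and H4C15, which share their values. The median difference of the members was -0.28, against 0.01 for all probe sets, and 55 of 57 point estimates lay below 0. The exceptions were H2BC1 (0.23) and H4C7 (0.22), the members with the lowest means, and neither was called. The members also differed between replicate arrays as a block, so their signs are not 57 separate observations.

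H4C5 had the smallest p. Its log2 level had a lowest, median and highest value of 9.37, 9.45 and 9.62 at 120 min, against 9.67, 9.83 and 9.95 at 0 min (6 arrays each). All 120 min arrays lay below all 0 min arrays. H4C5 was the one member with no overlap, a pattern shown by 0.956% of all probe sets in this direction. The difference was -0.34 ± 0.05 (SE), with an adjusted p of 0.000104.

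The other named members of the fall overlapped between times. H2AC8, an H2A gene of the large chromosome 6 cluster, had a lowest, median and highest level of 8.41, 8.78 and 9.44 at 120 min, against 9.14, 9.37 and 9.50 at 0 min, a difference of -0.47 ± 0.08 (adjusted p = 0.00101). H3C12, an H3 gene, measured 6.54, 7.25 and 7.77 at 120 min, against 7.37, 7.75 and 8.0 at 0 min (-0.52 ± 0.10, adjusted p = 0.00245). For both members the si-miR-671 arrays were the high ones at 120 min. The linker histone gene H1-3 measured 6.15, 6.45 and 6.84 at 120 min, against 6.78, 7.10 and 7.37 at 0 min (-0.65 ± 0.13, adjusted p = 0.00282). H1-2, another linker histone, measured 8.46, 9.07 and 9.35 at 120 min, against 9.33, 9.52 and 9.78 at 0 min (-0.52 ± 0.10, adjusted p = 0.00364). In both H1 genes the 2 time points met only at the edge of their ranges.

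H2AC6 had a lowest, median and highest level of 9.63, 9.87 and 10.2 at 120 min, against 10.0, 10.1 and 10.3 at 0 min, a difference of -0.26 ± 0.05 (adjusted p = 0.00252). Among the H4 genes, H4C4 was lower by -0.51 ± 0.10 (adjusted p = 0.0031), the shared measurement of H4C14 and H4C15 by -0.51 ± 0.11 (adjusted p = 0.00472) and H4C16, the member on chromosome 12, by -0.43 ± 0.09 (adjusted p = 0.00567). The remaining 14 members called lower had differences of -0.76 to -0.21. All 10 members named for this comparison kept their call when any 1 array was left out. The count itself depended on single arrays: it was 12 without si-miR-20a 120 min replicate 2, 13 without si-miR-20a 0 min replicate 1, 14 without si-miR-671 0 min replicate 1 or 120 min replicate 1, and 15 without control 0 min replicate 1. It was 19 without all si-miR-671 arrays.

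Fewer members were called earlier. At 60 min 5 members were lower and none higher, against 0.493% of all probe sets called lower and 2.16% higher, and 54 of 57 point estimates lay below 0 (median -0.20). These signs are likewise not separate observations, and the median of all probe sets is not given for this difference. H3C12 changed by -0.67 ± 0.10 (adjusted p = 0.000839), with 6.46, 7.15 and 7.45 as lowest, median and highest level at 60 min, against 7.37, 7.75 and 8.0 at 0 min. H2AC4 changed by -0.71 ± 0.14 (adjusted p = 0.00803), with 6.35, 6.65 and 6.95 at 60 min, against 6.91, 7.45 and 7.67 at 0 min. Each of these 2 overlapped only at the highest 60 min and the lowest 0 min array, and each kept its call when any 1 array was left out. H1-3 (-0.52 ± 0.13), H2AC16 (-0.44 ± 0.11) and H3C3 (-0.31 ± 0.08) had adjusted p-values of 0.0389 to 0.0431, and each lost its call in 14 or 15 of the 24 leave-outs. The count was 2 or 3 without any 1 array, other than the control 30 min, si-miR-671 120 min and si-miR-20a 120 min arrays, si-miR-20a 0 min replicate 2 and si-miR-20a 60 min replicate 1.

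At 30 min no member was called, against 0.766% of all probe sets called in either direction. By unadjusted limma p, 4 members passed 0.05, all lower, a share near the 5.74% of all probe sets that passed. The smallest p was that of H3C12 (-0.40 ± 0.10, adjusted p = 0.139). H1-1 (-0.20 ± 0.07, adjusted p = 0.59) and H2AC4 (-0.37 ± 0.14, adjusted p = 0.593) followed. The median of the members was -0.09, against -0.01 for all probe sets.

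**Figure D3:**
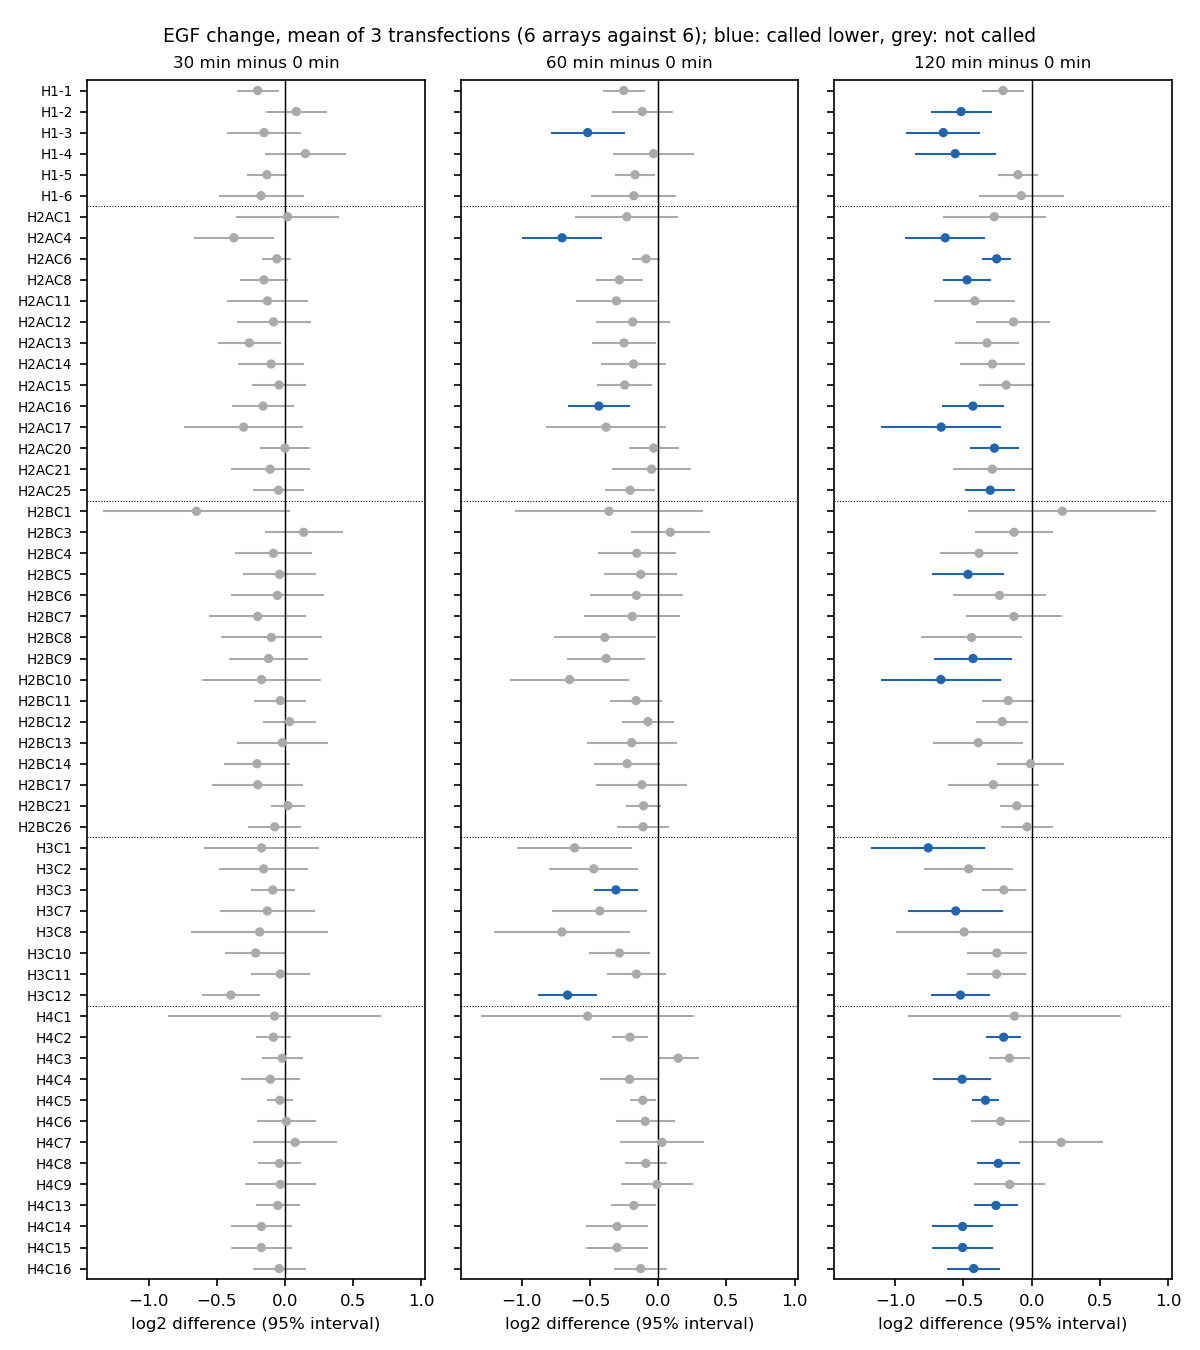
Log2 difference of each of the 57 histone probe sets at 30, 60 and 120 min against 0 min, averaged over the 3 transfections, with 95% confidence intervals from limma; dotted lines separate the classes. Blue marks members called lower (0, 5 and 24) and grey the others; no member was called higher.

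The 120 min difference was also taken within each transfection, with 2 arrays against 2 and the spread of all 24 arrays. In si-miR-20a cells 12 members were lower and none higher, against 3.14% of all probe sets called lower and 4.49% higher, with a median of -0.47. In si-miR-671 cells no member was called, against 5.95% of all probe sets called in either direction, and the median was -0.10. Of the 6 members with an unadjusted limma p under 0.05 in si-miR-671 cells, 3 were higher and 3 lower, and 20.2% of all probe sets passed that p. In control cells 6 members were lower and none higher, against 0.791% of all probe sets called lower and 2.17% higher, and the median was -0.44. Medians over all probe sets are not given for the differences within transfections.

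In si-miR-20a cells the linker histone H1-4 had the largest called difference. It measured 9.11 and 8.66 at 120 min, against 10.0 and 9.6 at 0 min, and both late arrays lay below both early ones. The difference was -0.94 ± 0.24 (adjusted p = 0.0278). H4C14 and H4C15 shared levels of 7.53 and 7.47 at 120 min, against 8.54 and 8.28 at 0 min (-0.91 ± 0.18, adjusted p = 0.00705). H2AC6 had the smallest p, with 9.92 and 9.79 at 120 min, against 10.3 and 10.3 at 0 min (-0.45 ± 0.09, adjusted p = 0.00462). In 39 of the 57 members, the 12 called ones included, both late arrays lay below both early arrays, as they did in 20.1% of all probe sets. The count rested on single arrays: without si-miR-20a 120 min replicate 2 none was called, without si-miR-20a 0 min replicate 1 only 1, and without si-miR-20a 120 min replicate 1 there were 26.

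In control cells H4C5 measured 9.41 and 9.37 at 120 min, against 9.91 and 9.95 at 0 min, a difference of -0.54 ± 0.08 (adjusted p = 0.000747). H3C12 measured 6.54 and 6.86 at 120 min, against 7.80 and 7.59 at 0 min (-0.99 ± 0.17, adjusted p = 0.00345). H2AC8 measured 8.61 and 8.60 at 120 min, against 9.33 and 9.32 at 0 min (-0.73 ± 0.14, adjusted p = 0.00809). In each of these the late arrays lay below the early ones, as they did without overlap in most members. H2AC6 (-0.41 ± 0.09), H4C3 (-0.53 ± 0.12) and H1-1 (-0.52 ± 0.13) completed the count, with adjusted p-values of 0.0145 to 0.0358. H4C5 kept its call when any 1 array was left out. The count was 1 or 2 without any 1 of the 4 control arrays at 0 and 120 min and 11 without either si-miR-20a array at 120 min. By unadjusted limma p under 0.05, 34 members were lower in control cells, where 12.1% of all probe sets passed in either direction. In si-miR-20a cells 31 members were lower by that p, where 21.6% of all probe sets passed.

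In si-miR-671 cells the 3 smallest p-values belonged to H1-3, H4C3 and H1-5, none of them called. H1-3 differed by -0.62 (95% interval -1.09 to -0.15, adjusted p = 0.125), H4C3 by 0.33 (0.07 to 0.59, adjusted p = 0.144) and H1-5 by 0.31 (0.06 to 0.56, adjusted p = 0.148). Whether the time course differed between transfections was tested with an F test over the 3 later times. No member was called for si-miR-20a against control, where 0.0154% of all probe sets were, nor for si-miR-671 against control, where 0.0514% were. By unadjusted limma p under 0.05 there were 2 members for si-miR-20a, where 5.29% of all probe sets passed, and 14 for si-miR-671, where 9.13% passed. H4C3 came nearest in si-miR-671 cells (adjusted p = 0.0573). With array weights, with a filter on low means or with trended and robust moderation, this test called 1 member each. The 120 min difference alone was not tested between transfections.

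**Figure D4:**
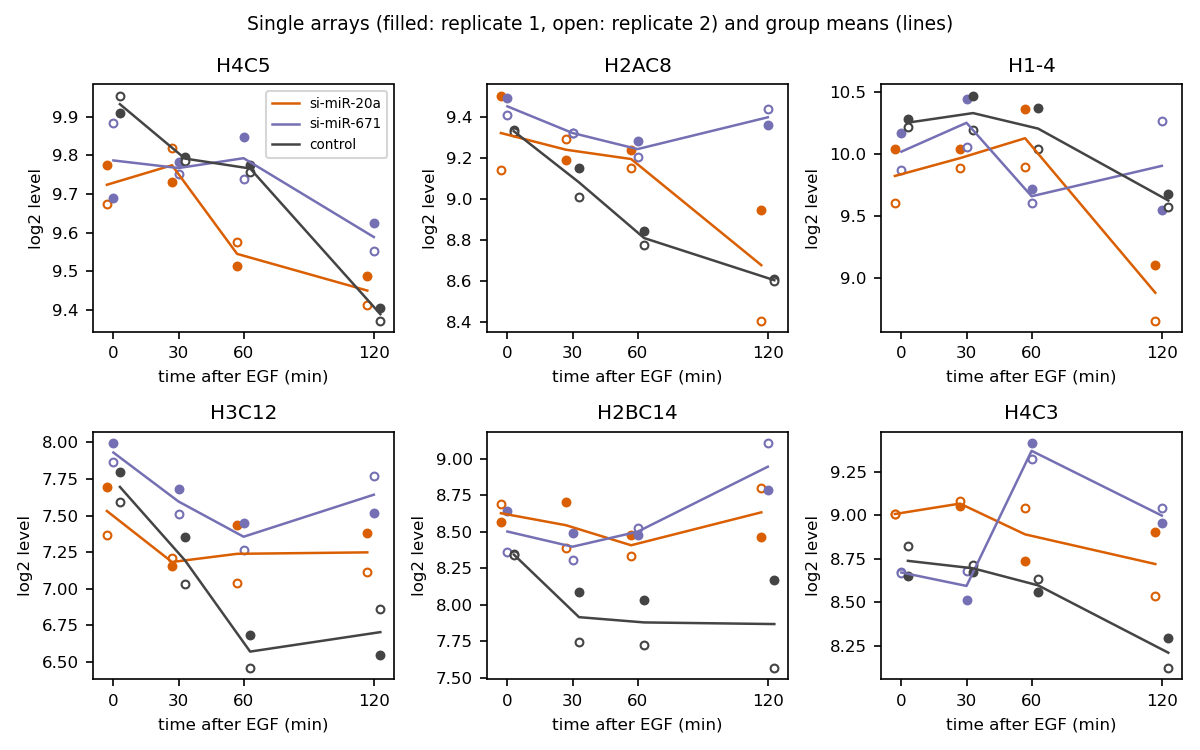
Log2 level of H4C5, H2AC8, H1-4, H3C12, H2BC14 and H4C3 in each array (filled points, replicate 1; open points, replicate 2) against time after EGF, with lines through the group means of si-miR-20a, si-miR-671 and control cells. Scales differ between panels. H4C3 reaches 9.41 and 9.32 in si-miR-671 cells at 60 min, against 8.56 and 8.64 in control cells.

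The transfections also differed in level. Against control over the 4 times, 15 members were higher and 1 lower in si-miR-20a cells, where 11.9% of all probe sets were called higher and 12.7% lower. The 16 called members were 28.1% of 57, near the 24.5% of all probe sets called in either direction. The share called in either direction thus does not set the histone genes apart. By direction the called members were uneven, 15 higher and 1 lower, whereas 11.9% and 12.7% of all probe sets were. The members' median was 0.08, against 0.01 for all probe sets.

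H1-5, a linker histone, had a lowest, median and highest level of 8.94, 9.12 and 9.36 in si-miR-20a cells, against 8.36, 8.63 and 8.98 in control cells (8 arrays each). The highest control array lay above the lowest si-miR-20a array. The difference was 0.50 ± 0.06 (adjusted p = 1.97e-05). H1-1 measured 8.31, 8.69 and 8.88 in si-miR-20a cells, against 8.02, 8.10 and 8.61 in control cells (0.45 ± 0.06, adjusted p = 9.93e-05). H2BC21, on chromosome 1, measured 7.76, 7.91 and 8.10 in si-miR-20a cells, against 7.46, 7.65 and 7.73 in control cells (0.30 ± 0.05, adjusted p = 0.000444). It was the one member whose arrays did not overlap, a pattern shown by 2.84% of all probe sets in this direction. H2AC21 (0.63 ± 0.12), H2BC14 (0.55 ± 0.10), H2BC4 (0.48 ± 0.12), H4C3 (0.36 ± 0.06), H2BC26 (0.33 ± 0.08), H4C2 (0.26 ± 0.05) and H2AC6 (0.19 ± 0.04) were also higher. H1-4 was lower, at 8.66, 9.89 and 10.4 in si-miR-20a cells, against 9.57, 10.2 and 10.5 in control cells (-0.40 ± 0.12, adjusted p = 0.0234). Its call was lost in 6 of the 24 leave-outs (adjusted p 0.0111 to 0.064 over the leave-outs), those of control 30 and 60 min replicate 1 and of replicate 2 of si-miR-20a at each time.

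The same comparison was made early and late. At 0 and 30 min 8 members were higher and none lower, against 4.79% of all probe sets called higher and 7.17% lower. At 60 and 120 min 12 were higher and none lower, against 8.95% called higher and 7.75% lower. The early count was 1 to 5 without any 1 of the control or si-miR-20a arrays at 0 and 30 min, other than si-miR-20a 30 min replicate 2. The late count was 7 without si-miR-20a 60 min replicate 1. The late minus early difference was called for no member, against 0.00514% of all probe sets, and 2 members passed an unadjusted limma p of 0.05, as did 5.94% of all probe sets. H3C12 had the smallest p there (0.70 ± 0.17, adjusted p = 0.435), followed by H2BC26 (0.38 ± 0.16, adjusted p = 0.789) and H2AC25 (0.24 ± 0.15, adjusted p = 0.894).

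In si-miR-671 cells 16 members were higher and 1 lower than in control cells over the 4 times, against 6.79% and 7.7% of all probe sets. The control arrays are those used for si-miR-20a, so these 2 comparisons are not independent. The median of the members was 0.22, against 0.00 for all probe sets, and 49 of 57 point estimates lay above 0. Early and late arrays were then taken apart. At 0 and 30 min no member was called, against 2.81% of all probe sets in either direction, and 8 had an unadjusted limma p under 0.05, 7 of them higher, a share near the 13% of all probe sets that passed it. The smallest early p-values were those of H1-1 (0.31 ± 0.09, adjusted p = 0.0928), H4C16 (-0.36 ± 0.11, adjusted p = 0.122) and H3C12 (0.32 ± 0.12, adjusted p = 0.238). At 60 and 120 min 20 members were higher and 1 lower, against 7.04% called higher and 8.37% called lower, and 53 of 57 point estimates lay above 0 (median 0.28). The median of all probe sets is not given for this late difference. Members shifted as a block between replicate arrays, so such signs are not 57 separate observations.

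The late difference of H1-5 was 0.82 ± 0.08 (adjusted p = 1.12e-05). Its levels at 60 min were 9.30 and 9.18 in si-miR-671 cells, against 8.43 and 8.39 in control cells, and at 120 min 9.31 and 9.33, against 8.68 and 8.36. H4C3 measured 9.41 and 9.32 at 60 min and 8.96 and 9.04 at 120 min in si-miR-671 cells, against 8.56 and 8.64 at 60 min and 8.30 and 8.12 at 120 min in control cells (0.78 ± 0.09, adjusted p = 2.44e-05). In both genes all 4 late si-miR-671 arrays lay above all 4 control arrays. H1-1 differed by 0.73 ± 0.09, H3C12 by 0.86 ± 0.12, H2AC8 by 0.61 ± 0.10, H2BC14 by 0.85 ± 0.14 and H2AC21 by 0.98 ± 0.17, with adjusted p-values of 5.75e-05 to 0.00101. H2AC6 (0.26 ± 0.06), H3C3 (0.40 ± 0.09) and H2BC11 (0.45 ± 0.11) were the other members named. Without overlap, 25 members were higher, as were 8.27% of all probe sets.

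H2BC12 was the exception among the called members. It measured 7.95 and 7.98 at 60 min and 8.04 and 8.33 at 120 min in si-miR-671 cells, against 8.74 and 8.59 at 60 min and 8.39 and 8.55 at 120 min in control cells. Its late si-miR-671 arrays all lay below its control arrays, with a difference of -0.49 ± 0.11 (adjusted p = 0.00697). At 0 and 30 min it measured 8.4 to 8.64 in si-miR-671 cells, against 8.52 to 8.79 in control cells. All 11 members named at 60 and 120 min kept their calls when any 1 array was left out, and the count ranged from 14 to 25.

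The late minus early change of the si-miR-671 difference was itself called for H4C3 (0.86 ± 0.12, adjusted p = 0.00907) and H1-5 (0.62 ± 0.12, adjusted p = 0.0326), against 0.519% of all probe sets in either direction. At 0 and 30 min H4C3 measured 8.51 to 8.68 in si-miR-671 cells, against 8.65 to 8.82 in control cells, so its early arrays overlapped. H4C3 kept this call in every leave-out, and H1-5 lost it in 15 of 24 (adjusted p 0.0161 to 0.0975). The count was 1 without any 1 of these 15 arrays, which were all 8 si-miR-671 arrays, both si-miR-20a arrays at 30 min, replicate 1 of control at 0 and 30 min, both control arrays at 60 min and control 120 min replicate 2. It was 4 without either si-miR-20a array at 120 min. Beside these results, si-miR-671 arrays at 60 and 120 min stood apart from those at 0 and 30 min over all probe sets as well, with 1804 called, against 1100 within si-miR-20a and 473 within control cells. The part of this shift in the histone differences was not tested.

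**Figure D5:**
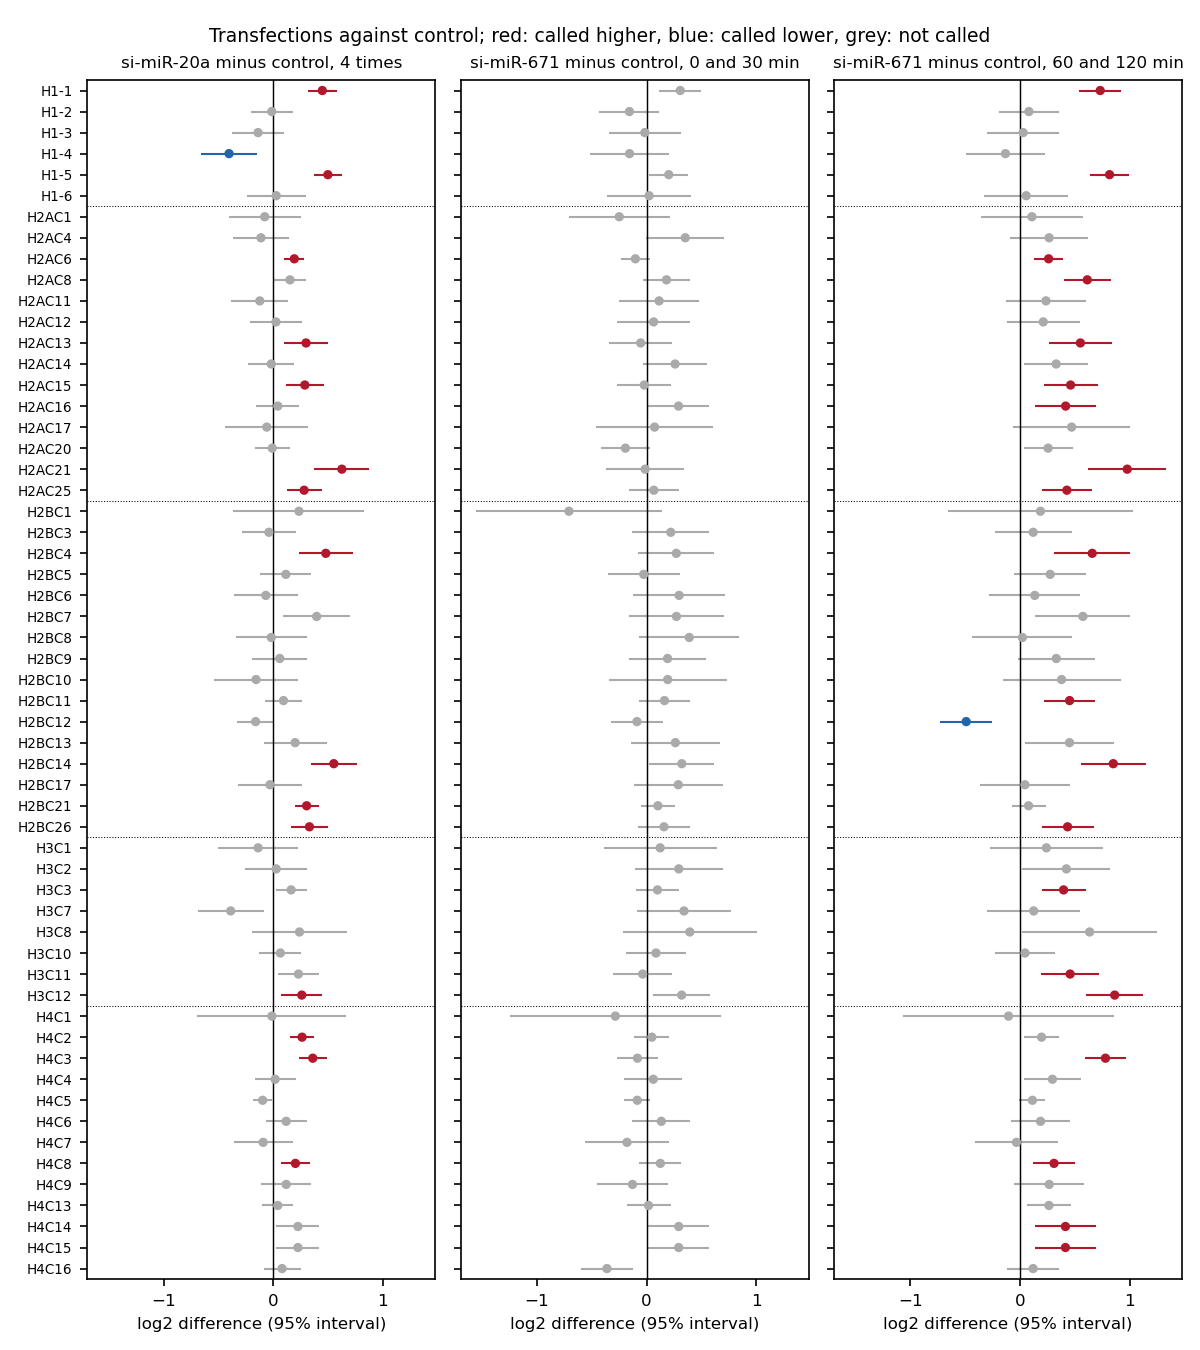
Log2 difference of each of the 57 histone probe sets against control, with 95% confidence intervals from limma, for si-miR-20a over 4 times, si-miR-671 at 0 and 30 min and si-miR-671 at 60 and 120 min. Red marks members called higher (15, 0 and 20), blue members called lower (1, 0 and 1) and grey the others; the panels share control arrays.

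Set directly against si-miR-671 over the 4 times, si-miR-20a cells had lower H3C7 and H3C12 and higher H2BC21, against 2.16% and 2.38% of all probe sets. H3C7 had a lowest, median and highest level of 5.70, 6.39 and 7.11 in si-miR-20a cells, against 6.46, 7.23 and 7.61 in si-miR-671 cells (-0.62 ± 0.14, adjusted p = 0.0217). H2BC21 measured 7.76, 7.91 and 8.10 in si-miR-20a cells, against 7.46, 7.70 and 7.95 in si-miR-671 cells (0.21 ± 0.05, adjusted p = 0.0275), and H3C12 7.04, 7.29 and 7.69, against 7.26, 7.60 and 8.0 (-0.33 ± 0.09, adjusted p = 0.042). The arrays of both transfections overlapped in each gene. Each call was lost in 8 to 16 leave-outs. The count was 0 or 1 without any 1 of 4 si-miR-671 arrays (both replicates at 0 and at 30 min), si-miR-671 60 min replicate 1 or 120 min replicate 2, both si-miR-20a arrays at 30 min, and replicate 2 of si-miR-20a at 0 and 60 min. It was 5 without si-miR-671 120 min replicate 1, 7 without si-miR-20a 0 min replicate 1 and 8 without si-miR-20a 120 min replicate 1. With the replicate number as a block it was 7.

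The divergent gene pairs of the clusters were examined next. Of 15 pairs of adjacent, divergently transcribed members, 1 pair, H3C7 and H2BC9, was called at 120 min in both genes and 8 in 1 gene. H2AC14 and H2BC14 had differences of 0.33 and 0.85 in late si-miR-671 cells, and only H2BC14 was called. H2BC8 and H2AC8 had differences of 0.02 and 0.61 there, and only H2AC8 was called. H2BC12 and H4C9 had opposite signs there, at -0.49 (called) and 0.27 (not called). In these cells 2 pairs were called in both genes and 7 in 1 gene. Those called in both were H2AC25 and H2BC26, higher by 0.43 each, and H2BC4 and H2AC6, higher by 0.66 and 0.26. Whether these pair counts differ from those of unrelated members with the same share of calls was not tested. By motif, 10 of the 23 listed promoters of members lower at 120 min held the HINFP core, as in the H4C5 promoter printed above, against 3 of 29 of members not called. The 10 include both H4C14 and H4C15, whose shared values make their calls a single measurement. The octamer was found in 8 of 23, against 15 of 29, and CCAAT in 16 of 23, against 28 of 29. The HINFP core lay mostly in H4 promoters and the octamer only in H2A and H2B promoters. Outside H4, the core was found in H2AC20 and H3C7, both called lower, and in H2BC21, which was not called. How far these counts go with class was not tested.

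Among other genes of DNA synthesis, of 39 measured genes of S phase and the replication fork, 9 were lower and none higher at 120 min than at 0 min (median -0.13), led by CDT1 (-0.74 ± 0.09), which licenses origins, ORC1 (-0.54 ± 0.07), a subunit of the origin recognition complex, and TYMS (-0.34 ± 0.07) and TK1 (-0.48 ± 0.11), which make thymidine nucleotides. At 120 min 6.27% of all probe sets were called lower and 7.13% higher. Against control, si-miR-20a cells had 16 of the 39 higher, where 11.9% of all probe sets were called higher and 12.7% lower. In si-miR-671 cells 35 were higher, where 6.79% of all probe sets were called higher and 7.7% lower. None of the 39 was lower in either comparison. CDC6 (0.57 ± 0.05), MCM3 (0.40 ± 0.04) and MCM5 (0.55 ± 0.05), which load or form the replicative helicase, were among the 35 in si-miR-671 cells. At 0 and 30 min, when no histone member was called in si-miR-671 cells, 12 of the 39 were higher there. Of all probe sets, 2.81% were called then in either direction. At 60 and 120 min 30 were higher, against 7.04% of all probe sets.

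Of 32 measured genes that transcribe or process histone mRNA, 2 were lower and 1 higher at 120 min: CCNA2, a cyclin of S phase (-0.25 ± 0.06), and the uridylyltransferases TUT4 (-0.24 ± 0.06) and TUT7 (0.20 ± 0.05), with adjusted p-values of 0.00944 to 0.0257. Of all probe sets, 6.27% were called lower and 7.13% higher at 120 min, so the share of this list is not above that of all probe sets. NPAT (0.00 ± 0.09, adjusted p = 0.997) and SLBP (0.06 ± 0.08, adjusted p = 0.694) were not called. Against control, 7 were higher and 4 lower in si-miR-20a cells, where 11.9% of all probe sets were called higher and 12.7% lower, and 5 were higher and none lower in si-miR-671 cells, where 6.79% were called higher and 7.7% lower. CCNE2, a cyclin E that partners CDK2, was higher by 0.59 ± 0.09 in si-miR-20a and by 0.68 ± 0.09 in si-miR-671 cells. CDK2 was higher by 0.34 ± 0.07 in si-miR-20a and by 0.37 ± 0.07 in si-miR-671 cells. ERI1, an exonuclease that trims the histone mRNA 3′ end, was higher by 0.28 ± 0.07 in si-miR-20a and by 0.37 ± 0.07 in si-miR-671 cells. The genes named against control were all higher, and values of the 4 lower in si-miR-20a cells are not given.

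Among 12 measured variants listed as replication-independent, H2AX (-0.29 ± 0.06), H2AZ1 (-0.23 ± 0.06) and H1-10 (-0.30 ± 0.08) were lower at 120 min and H3-3B, which encodes H3.3, was higher (0.18 ± 0.04). Their median was -0.06, against -0.28 for the replication-dependent members. Of 25 histone chaperone and supply genes, TONSL (-0.44 ± 0.10), DNAJC9 (-0.19 ± 0.05) and NAP1L4 (-0.24 ± 0.07) were lower and DAXX (0.24 ± 0.07) higher at 120 min. Beside both lists, 6.27% of all probe sets were called lower and 7.13% higher at 120 min. Against control, 6 of the 25 were higher and 3 lower in si-miR-20a cells, where 11.9% of all probe sets were called higher and 12.7% lower. In si-miR-671 cells 10 were higher and none lower, where 6.79% of all probe sets were called higher and 7.7% lower. SUPT16H, a subunit of the chaperone FACT, was higher by 0.42 ± 0.03 in both si-miR-20a and si-miR-671 cells. Values of the 3 genes lower in si-miR-20a cells are not given.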

How the data were processed

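Values were the log2 levels the authors deposited for 33297 probe sets on 24 Affymetrix Human Gene 1.0 ST arrays. Affymetrix Expression Console made them, per the submitters' processing notes. Its summarization, background and normalization settings are not given in the sources used here, and the log2 scale was read from the values (array medians 6.56 to 6.57). Array number limits the precision.

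Probe sets were named through the platform annotation: 19460 had 1 symbol and were tested, 1754 had several symbols and 12083 were not listed. limma 3.58.1 (R 4.3.3) fitted 1 mean per group to all 24 arrays, without covariates, with empirical Bayes moderation (12 residual and 2.57 prior degrees of freedom) and Benjamini-Hochberg adjustment over 19460 probe sets. A call is an adjusted p under 0.05. Contrasts over transfections or times were averages of group means.

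Members, gene lists and tests were chosen with earlier results of these data known. Named were the called members, at most 10 per direction by smallest p, or the 3 smallest p where fewer than 3 were called, and at most 4 called genes per list; NPAT, SLBP and pairs of neighbours were named after their values were seen. Listed genes were read from their probe set with the highest mean. Alternatives were quantile normalization, all probe sets, a filter on means below 4.96, trended and robust moderation, array weights, only the arrays compared, no si-miR-671 arrays, the replicate number as a block and each array left out. Same-numbered replicates were not treated as pairs in the main fit. Over all tested probe sets, deviations correlated at -0.57 to 0.55 over 66 pairs of groups, above 0.1 in 30. Most histone members, however, were higher in replicate 1 in 11 of 12 groups. A protocol also mentions oligonucleotides against miR-212, not analysed here.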

Additional observations from a re-analysis of the deposited data

Results flagged for a closer look

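The difference between si-miR-671 and control cells changed between the early (0 and 30 min) and late (60 and 120 min) arrays for 2 members, by limma's test of the change itself with adjustment over all 19460 probe sets. Of all probe sets, 0.519% were called in either direction. H4C3 kept its call when any 1 array was left out, whereas H1-5 lost its call in some leave-outs. For H4C3 the late minus early difference was 0.86 (adjusted p = 0.00907): the late difference was 0.78, and at 0 and 30 min the si-miR-671 arrays lay between 8.51 and 8.68, against 8.65 to 8.82 in control cells. All 4 late si-miR-671 arrays were above all 4 late control arrays. For H1-5 the late minus early difference was 0.62 (adjusted p = 0.0326): the late difference was 0.82 and the early one 0.20 (adjusted p = 0.282). The early arrays of H1-5 lay at 8.92 to 9.09 in si-miR-671 cells, against 8.57 to 8.98 in control cells, and so overlapped.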

How the results depend on the processing

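No member named changed direction in any setting run, and quantile normalization left every count of called members within 1.5 times. The 120 min count of 24 was 12 when only the arrays compared were fitted. The 60 min count of 5 was 2 with all probe sets tested and 1 without the si-miR-671 arrays. Within si-miR-20a cells the 120 min count of 12 was 3 with array weights and 0 with only the arrays compared, and within control cells the count of 6 was 0 with only those arrays. With only the arrays compared, si-miR-20a against control gave 4 members at 0 and 30 min, and 3 at 60 and 120 min, while the direct comparison of the oligonucleotides gave 0. With array weights, si-miR-671 against control gave 2 members at 0 and 30 min, 4 for late minus early and 1 for the F test of the time course. That F test also gave 1 with the filter on low means and 1 with trended and robust moderation. With all probe sets tested, the late minus early change in si-miR-671 gave 1 member; the direct comparison also gave 1, and 6 with trended and robust moderation. With the replicate number as a block, si-miR-20a against si-miR-671 gave 7 members, the 120 min count was 28, and no other count moved by over 1.5 times. Leaving out 1 array at a time gave 12 to 34 members at 120 min and 2 to 5 at 60 min. Within transfections at 120 min it gave 0 to 26 (si-miR-20a), 0 to 1 (si-miR-671, 1 without either si-miR-20a 120 min array) and 1 to 11 (control). Against control it gave 13 to 19 for si-miR-20a over 4 times, 1 to 8 early and 7 to 15 late, and 14 to 20 for si-miR-671 over 4 times and 14 to 25 late. Late minus early in si-miR-671 gave 1 to 4 (4 without either si-miR-20a 120 min array), si-miR-20a against si-miR-671 0 to 8, and the si-miR-671 F test 0 to 2 (2 without either si-miR-20a 120 min array). Causes were not tested, except that fitting fewer arrays leaves fewer residual degrees of freedom. Each group had 2 arrays, and signal over background is not given for these values.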
